A study of Mus musculus with 6 samples.

Results

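The 9 genes described here encode proteins that leukocytes use to roll along and stop on a vessel wall: Selplg, Cd44, the integrin subunits Itgal, Itgam, Itgax, Itgb2, Itga4 and Itgb1, and Pecam1. They were listed by name for their place in neutrophil rolling and arrest, and make up 9 of the 28987 genes in the table. RNA sequencing was done on bone marrow cells of C57BL/6 mice with mutations of CBL and RUNX1, a model of myelodysplastic syndrome, after Mdivi-1 or its vehicle. The compound Mdivi-1 was described as blocking Drp1, a GTPase that splits mitochondria. There were 6 libraries in 4 groups: hematopoietic stem and progenitor cells (HSCPs) with vehicle (1 library) or Mdivi-1 (1 library), and Ly6G+ myeloid cells with vehicle (2 libraries) or Mdivi-1 (2 libraries). HSCPs were enriched by the receptor CD117 and the mutant clone was then sorted, and the Ly6G+ cells were mutant cells sorted by that surface protein of maturing neutrophils. All 4 groups therefore carried the same mutations, and no group of cells without them is described here. The labels say that marrow was taken from single mice but not which mouse gave which library, and they give neither the alleles, the age of the mice, nor the dose and length of treatment. P-values here measure the spread between these libraries, which may be technical.

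A neutrophil is first slowed by selectins of the vessel wall, which bind sugars carried by PSGL-1, the product of Selplg, and by the hyaluronan receptor CD44. Signals from that contact and from chemokines switch integrins to their binding shape, and the integrins then hold the cell on ICAM-1 and VCAM-1. Each integrin pairs 1 alpha with 1 beta subunit: the beta 2 chain of Itgb2 joins the alpha chains of Itgal (LFA-1), Itgam (Mac-1) and Itgax (p150,95), and the beta 1 chain of Itgb1 joins that of Itga4 (VLA-4). PECAM-1 sits on platelets, endothelium and leukocytes and takes part in the passage through the vessel wall.

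Promoter windows from RefSeq (GRCm38.p6, the assembly also called mm10), running from 250 bases before to 50 bases after the annotated start, were found for 5 of the 9 genes: Itgam, Itgax, Itga4, Itgb1 and Cd44. Those of Itgam, Itgax and Itgb1 are shown because Itgam and Itgax lie next to each other on chromosome 7 and were both higher in Ly6G+ cells. Itgb1 was lower there in the values as deposited, a call that depended on the scaling of the libraries, as given below. Capitals mark GAGGAA or its reverse complement TTCCTC, the purine-rich core bound by the myeloid factor PU.1.
Itgam, chr7:128062390-128062689, plus strand: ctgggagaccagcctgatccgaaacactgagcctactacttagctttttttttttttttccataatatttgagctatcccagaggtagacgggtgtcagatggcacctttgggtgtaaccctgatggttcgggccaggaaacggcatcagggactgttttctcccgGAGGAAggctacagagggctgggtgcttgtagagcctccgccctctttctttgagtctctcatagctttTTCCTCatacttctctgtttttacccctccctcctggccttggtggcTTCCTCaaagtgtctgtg
Itgax, chr7:128129300-128129599, plus strand: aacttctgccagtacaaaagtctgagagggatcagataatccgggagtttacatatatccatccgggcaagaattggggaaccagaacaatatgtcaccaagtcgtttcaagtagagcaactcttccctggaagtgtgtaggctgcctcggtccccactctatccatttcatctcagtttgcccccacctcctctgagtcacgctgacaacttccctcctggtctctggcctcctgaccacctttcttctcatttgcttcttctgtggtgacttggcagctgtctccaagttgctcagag
Itgb1, chr8:128685404-128685703, plus strand: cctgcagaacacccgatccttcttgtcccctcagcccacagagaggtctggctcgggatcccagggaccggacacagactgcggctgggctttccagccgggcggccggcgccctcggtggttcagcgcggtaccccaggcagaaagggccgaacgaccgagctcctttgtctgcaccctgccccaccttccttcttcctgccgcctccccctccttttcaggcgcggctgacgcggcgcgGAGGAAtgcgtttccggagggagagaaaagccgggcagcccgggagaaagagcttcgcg
The Itgam window held 3 matches, which began 84 and 15 bases before the start (-84 and -15) and 33 bases after it. That of Itgb1 held 1 match, at -9, and that of Cd44 held 2, at -243 and -220, while those of Itgax and Itga4 held 0. Over all 32817 windows of the table, 28.3% held at least 1 match on either strand and 0.686% held at least 3. A match is a run of letters and was not tested as a binding site.

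Levels are given in TPM, a share of all transcripts corrected for transcript length, so that genes can be compared within a library. TPM keeps no read totals, so the depth is unknown, and each library summed to between 963243.1 and 979168.3 over the table. Between 11456 and 11930 genes reached 1 TPM in a library. The sorts were checked by the transcript of their marker: Ly6g stood at 187 and 90.1 TPM in HSCP vehicle and Mdivi-1 and at 642 to 839.8 TPM in Ly6G+, and Kit, the gene of CD117, at 72.2 and 64.9 TPM against 8.73 to 14.1 TPM. Of 12 neutrophil markers, 12 were higher in Ly6G+ than in HSCP, where they still summed to 96402 and 87231 TPM. Dnm1l, the gene of Drp1, stood at 23.7 ± 0.846 TPM with vehicle and 23.8 ± 1.11 TPM with Mdivi-1 in Ly6G+ (SD, n = 2). In bulk RNA, fewer cells of a type and less RNA per cell cannot be told apart.

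The first comparison asked how the adhesion genes differ between the immature and the maturing population. Of the 9 genes, 7 were higher and 2 lower in Ly6G+ than in HSCP, and the ranges of the populations overlapped for 0 of the 9. The test was limma over all 6 libraries with treatment as a covariate, on log2(TPM + 1), with Benjamini-Hochberg adjustment over 12338 genes and a threshold of 0.05. By that test 22.2% of all genes were higher and 50.3% lower (72.4% in all). Populations did not overlap for 76.1% of all genes, 23.5% higher and 52.5% lower. The median difference of the 9 genes was 1.11 on the log2 scale, against -0.35 for all genes tested. Scaling libraries by median of ratios or upper quartile moved the median of all genes to -0.03 or -0.07, and the share of calls that were higher from 30.6% to 48.8% or 46.3%. A scaling shifts all genes of a library alike, so the gap of 1.46 between the medians is fixed apart from the pseudocount.

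Among the ligands for rolling, Selplg stood at 127 TPM in HSCP with vehicle and 124 TPM with Mdivi-1. The Ly6G+ libraries held 238 and 260.3 TPM with vehicle and 351 and 314 TPM after treatment. All 4 Ly6G+ libraries were above both HSCP libraries, and the 2 with Mdivi-1 were the highest. The difference between populations was 1.19 on the log2 scale, with SE 0.113 (limma, Benjamini-Hochberg adjusted p = 0.000142), or 2.32-fold on the means. Cd44, which also marks progenitor and activated leukocytes, was at 102 and 95.01 TPM in HSCP, 239 and 234 TPM in vehicle-treated Ly6G+ and 265 and 253 TPM in treated Ly6G+. It was 2.51-fold higher in Ly6G+ (log2 difference 1.32, SE 0.070, limma, Benjamini-Hochberg adjusted p = 1.71e-05), again with no overlap.

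Of the beta 2 integrin genes, Itgb2 and Itgam were the most abundant of the 9. Itgb2, the shared beta chain, was at 288 and 281 TPM in the HSCP libraries (vehicle first), 883 and 933 TPM in Ly6G+ with vehicle, and 906 and 885 TPM in Ly6G+ with the drug. Itgam, the alpha chain of the complement receptor Mac-1, was at 169 and 147 TPM in HSCP, 995 and 957 TPM in Ly6G+ with vehicle, and 1077 and 1184 TPM in Ly6G+ with the drug. Both genes thus had a wide gap between populations, and Itgam the widest of the 9: it was 6.67-fold higher in Ly6G+ (log2 difference 2.73, SE 0.0999, limma, Benjamini-Hochberg adjusted p = 8.12e-06). For Itgb2 the difference was 3.17-fold (log2 1.66, SE 0.052, limma, Benjamini-Hochberg adjusted p = 6.92e-06). Itgal, the alpha chain of LFA-1, was at 87.6 and 90.3 TPM in HSCP, 186 and 179 TPM in Ly6G+ with vehicle, and 195 and 191 TPM in Ly6G+ with the drug. It was 2.11-fold higher in Ly6G+ (log2 difference 1.07, SE 0.054, limma, Benjamini-Hochberg adjusted p = 1.51e-05). Itgax, an alpha chain best known from dendritic cells, was the lowest beta 2 partner at 4.35 and 3.39 TPM in HSCP, 7.50 and 8.02 TPM in Ly6G+ with vehicle, and 11.6 and 11.5 TPM in Ly6G+ with the drug. Its difference between populations was 1.11 with SE 0.185 (limma, Benjamini-Hochberg adjusted p = 0.00169).

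In the GENCODE M21 transcripts, 31.7% of the 31-base words of Itgam (chromosome 7, 128062640 to 128118491, plus strand) occur in no other gene, since 67.2% are shared with the overlapping model Gm49368, whose level is not used here. Itgax (chromosome 7, 128129547 to 128150657, plus strand) had 89.3% unique words and shared the rest with its neighbour Itgad, another beta 2 alpha chain, which was at 0 TPM in 5 libraries and at 0.130 TPM in the other. The remaining 7 genes had at least 91.1% unique words, so the level of Itgam is the least certain of the 9.

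The beta 1 integrin genes went apart. Itga4, the alpha chain of the VCAM-1 receptor VLA-4, was at 47.6 and 48.8 TPM in HSCP, 68.3 and 64.4 TPM in Ly6G+ with vehicle, and 81.1 and 77.7 TPM in Ly6G+ with the drug, a log2 difference of 0.58 between populations (SE 0.075, limma, Benjamini-Hochberg adjusted p = 0.000536). Itgb1, the beta chain that serves many receptors for matrix, was at 91.5 and 94.1 TPM in HSCP, 67.0 and 67.5 TPM in Ly6G+ with vehicle, and 74.5 and 77.1 TPM in Ly6G+ with the drug. Every HSCP library was above every Ly6G+ library for Itgb1, with a log2 difference of -0.37 (SE 0.061, limma, Benjamini-Hochberg adjusted p = 0.00157). That call depended on the scaling: the difference was -0.01 (limma, Benjamini-Hochberg adjusted p = 0.876) by median of ratios and -0.06 (limma, Benjamini-Hochberg adjusted p = 0.466) by upper quartile. The other 8 genes kept their direction and call under both, where 33.1% of all genes were higher and 34.7% lower by median of ratios, and 31.7% and 36.9% by upper quartile.

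Pecam1 had the largest difference in favour of HSCP. It stood at 34.3 and 27.3 TPM in the HSCP libraries (vehicle first), 15.0 and 13.9 TPM in Ly6G+ with vehicle, and 9.09 and 10.2 TPM in Ly6G+ with the drug. The groups did not overlap, and the log2 difference was -1.30 (SE 0.094, limma, Benjamini-Hochberg adjusted p = 4.73e-05), or 2.55-fold higher in HSCP.

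**Figure D1:**
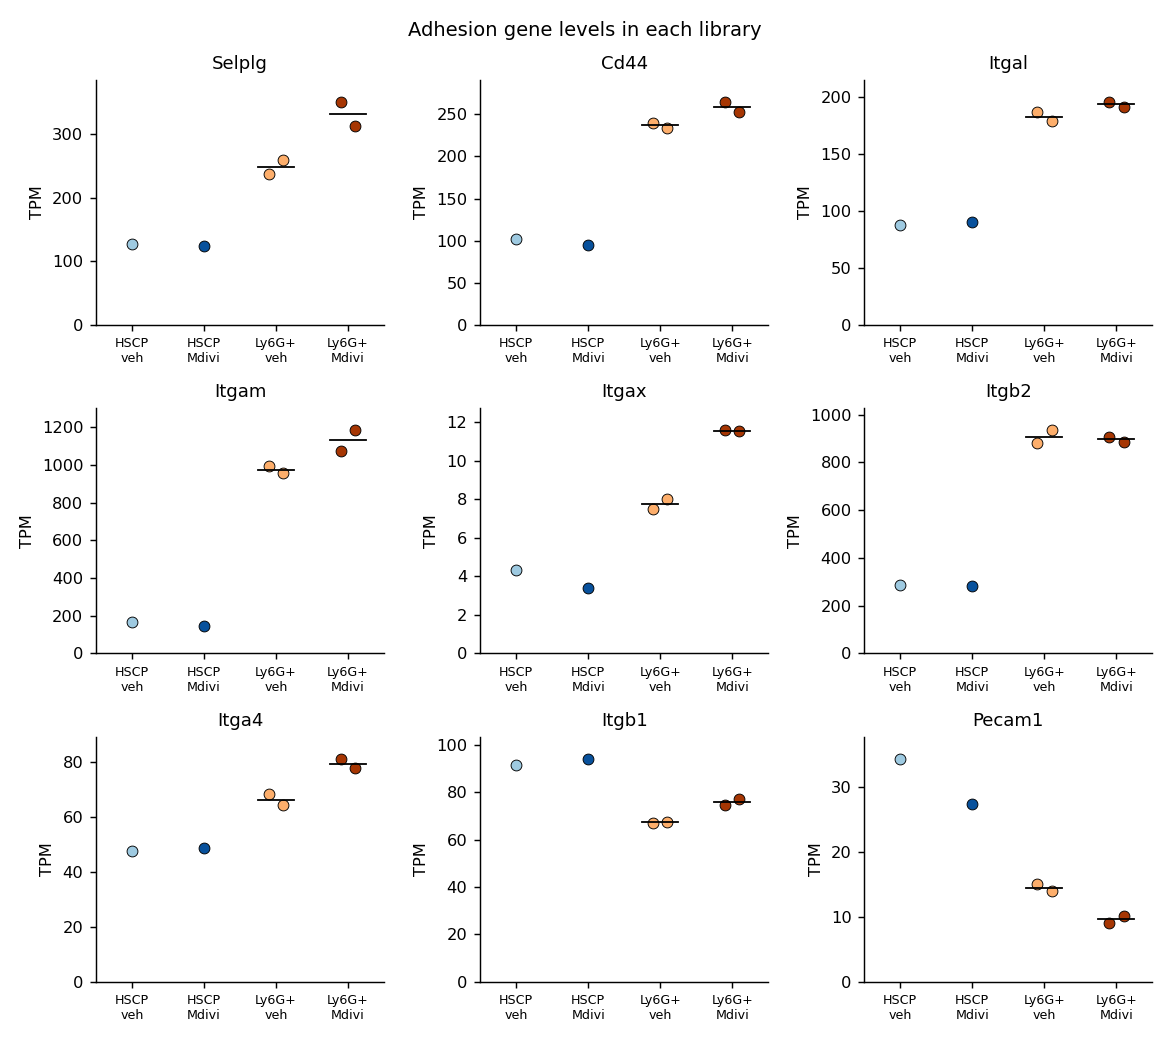
Level of each of the 9 adhesion genes in TPM (vertical axis, from 0, on a separate scale for each gene) in the 6 libraries, by group along the horizontal axis. Points are libraries and bars are the means of the 2 Ly6G+ libraries of a group; Itgam runs from 147 to 1184 TPM, and Itgb1 and Pecam1 are the genes whose HSCP points lie above all Ly6G+ points.

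Ranked by level, the order in HSCP was Itgb2, Itgam, Selplg, Cd44, Itgb1, Itgal, Itga4, Pecam1 and Itgax, and no neighbours in it had overlapping ranges over the 2 libraries. In Ly6G+, Itgam came before Itgb2, then Selplg, Cd44, Itgal, Itga4, Itgb1, Pecam1 and Itgax. There the ranges over 4 libraries overlapped between Selplg and Cd44, between Itga4 and Itgb1, and between Pecam1 and Itgax. Itgax and Pecam1 changed places with treatment: Pecam1 was above Itgax in both vehicle libraries and below it in both Mdivi-1 libraries.

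The second comparison asked what Mdivi-1 altered in Ly6G+ cells. Of the 9 genes, 1 rose (Itgax), 1 fell (Pecam1) and 7 did not pass the test, against 2.46% of all genes called higher and 4.24% called lower (6.7% in all). The test was limma on the 4 Ly6G+ libraries, on log2(TPM + 1), with Benjamini-Hochberg adjustment over 11775 genes. It left 2 residual degrees of freedom, and fewer when a library was left out. A call lost in that way therefore does not by itself show an unstable change. The libraries with Mdivi-1 lay above both vehicle libraries for 7 genes and below both for 1, where 21% and 36.7% of all genes did so (57.7% together). The median of the 9 genes was 0.17 on the log2 scale and that of all genes was -0.05. At an unadjusted p under 0.05 there were 6 of the 9 genes and 3026 of the 11775 genes tested.

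Itgax went from 7.50 and 8.02 TPM with vehicle to 11.6 and 11.5 TPM with Mdivi-1. The means were 7.76 ± 0.373 and 11.6 ± 0.0217 TPM (SD, n = 2), a fold of 1.49. The log2 change was 0.52, with SE 0.092 and a 95% interval from 0.28 to 0.76 (limma, Benjamini-Hochberg adjusted p = 0.0427). Pecam1 went from 15.0 and 13.9 TPM to 9.09 and 10.2 TPM, with means of 14.5 ± 0.760 and 9.62 ± 0.754 TPM (SD, n = 2). Its log2 change was -0.55, with SE 0.098 and an interval from -0.80 to -0.29 (limma, Benjamini-Hochberg adjusted p = 0.0446). Both calls lie near the threshold and each was lost when any 1 of the 4 libraries was left out: the change of Itgax was then 0.48 to 0.56 (limma, Benjamini-Hochberg adjusted p = 0.125 to 0.164), and that of Pecam1 -0.62 to -0.47 (limma, Benjamini-Hochberg adjusted p = 0.107 to 0.179). Pecam1 also lost its call under median-of-ratios scaling, at -0.49 (limma, Benjamini-Hochberg adjusted p = 0.0625), and Itgax kept its call there, at 0.58 (limma, Benjamini-Hochberg adjusted p = 0.0320).

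Selplg lay just outside the threshold. It stood at 238 and 260.3 TPM with vehicle and 351 and 314 TPM with Mdivi-1, and the means were 249 ± 15.9 and 332 ± 26.4 TPM (SD, n = 2). Both treated libraries were above both vehicle libraries. The log2 change was 0.41 with SE 0.080 and an interval from 0.21 to 0.62 (limma, Benjamini-Hochberg adjusted p = 0.0508). It passed under median-of-ratios scaling, at 0.48 (limma, Benjamini-Hochberg adjusted p = 0.0295), and under upper-quartile scaling, at 0.47 (limma, Benjamini-Hochberg adjusted p = 0.0283). With a minimum of 5 TPM it passed too (limma, Benjamini-Hochberg adjusted p = 0.0345). It did not pass with a pseudocount of 0.1 TPM or without a filter (limma, Benjamini-Hochberg adjusted p = 0.0532 and 0.123). Under both scalings 2 of the 9 genes were called, Itgax and Selplg in place of Itgax and Pecam1. Of all genes, 3.33% were called higher and 3.09% lower by median of ratios, and 3.22% and 3.2% by upper quartile. The other ligand, Cd44, had means of 237 ± 3.73 and 259 ± 8.33 TPM (SD, n = 2) and a log2 change of 0.13 (limma, Benjamini-Hochberg adjusted p = 0.212).

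The remaining integrin genes did not pass. Itgam had means of 976 ± 27.2 TPM with vehicle and 1131 ± 75.2 TPM when treated (SD, n = 2), and its log2 change was 0.21 (limma, Benjamini-Hochberg adjusted p = 0.121). For Itga4 they were 66.3 ± 2.79 and 79.4 ± 2.42 TPM (SD, n = 2), a log2 change of 0.26 (limma, Benjamini-Hochberg adjusted p = 0.0848). Both genes were higher in each treated library than in each vehicle library, as were Itgb1 and Itgal. Itgb1 had means of 67.2 ± 0.306 and 75.8 ± 1.82 TPM and Itgal 182 ± 5.36 and 193 ± 3.01 TPM (SD, n = 2). Their log2 changes were 0.17 and 0.08 (limma, Benjamini-Hochberg adjusted p = 0.148 and 0.384). Itgb2, the beta chain of 3 of these receptors, was the 1 gene whose groups overlapped: its means were 908 ± 35.8 and 896 ± 14.9 TPM (SD, n = 2). Its log2 change was -0.02, with an interval from -0.15 to 0.11 (limma, Benjamini-Hochberg adjusted p = 0.851), and its sign turned under both scalings, to 0.046 and 0.042.

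**Figure D2:**
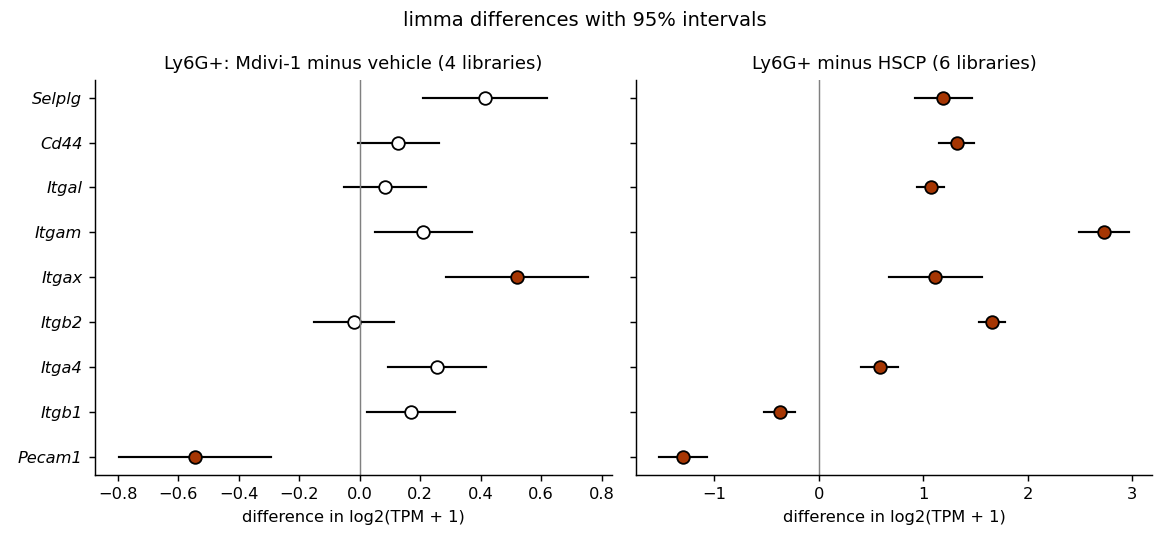
Difference in log2(TPM + 1) for each of the 9 genes with its 95% interval from limma, for Mdivi-1 minus vehicle in the 4 Ly6G+ libraries (left) and for Ly6G+ minus HSCP in all 6 libraries (right); filled points passed an adjusted p of 0.05. On the left, Itgax (0.52) and Pecam1 (-0.55) are filled and Selplg (0.41) is open, and on the right all 9 points are filled, with Itgb1 and Pecam1 below 0.

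In HSCP, where each treatment had 1 library and no test was run, none of the 9 genes reached a log2 ratio of 0.5 in size, whereas 6.97% of 11504 genes did, 2.57% higher and 4.4% lower. The ratio of Mdivi-1 to vehicle was -0.29 for Itgax, -0.32 for Pecam1, -0.20 for Itgam, -0.10 for Cd44 and -0.03 for Selplg. For Itgal, Itga4, Itgb1 and Itgb2 it lay between -0.04 and 0.04. Itgax thus stood lower with Mdivi-1 in HSCP and higher in Ly6G+, and Pecam1 stood lower in both. The difference of the treatment effect between populations was tested with limma's interaction term, in which the single HSCP libraries are assumed to vary like those of Ly6G+. It called 0 of the 9 genes and 0 of 12338 genes (0% of all), with 3 and 1398 at an unadjusted p under 0.05. For Itgax the difference of effects was 0.81 on the log2 scale (SE 0.176, limma, Benjamini-Hochberg adjusted p = 0.267). For Selplg it was 0.45 (limma, Benjamini-Hochberg adjusted p = 0.389) and for Itgam 0.41 (limma, Benjamini-Hochberg adjusted p = 0.353). The comparisons share libraries, so their values are given side by side and not as separate evidence.

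Ratios within a library do not depend on the scaling between libraries and are given as a description. The ratio of Itgam to Itgb2 was 0.586 and 0.524 in the HSCP libraries (vehicle first), 1.13 and 1.03 in Ly6G+ with vehicle, and 1.19 and 1.34 in Ly6G+ with the drug. That of Itgal to Itgb2 went the other way, at 0.304 and 0.322 in HSCP and 0.192 to 0.216 in the Ly6G+ libraries. The balance between the transcripts of the Mac-1 and LFA-1 alpha chains therefore differed between populations in the values as deposited. Itgam was 1.93 and 1.63 times Itgal in HSCP, and 5.34 to 6.19 times Itgal in Ly6G+. The ratios with Itgam and the shares that follow rest on its level, and 67.2% of its 31-base words are shared with Gm49368. Of the summed TPM of the 4 beta 2 alpha chains, Itgam held 64.7% and 61.1% in HSCP and 83.7% to 85.4% in Ly6G+. Itgax held 1.67% and 1.41% of that sum in HSCP, 0.630% and 0.702% in Ly6G+ with vehicle, and 0.901% and 0.832% in Ly6G+ with the drug.

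For beta 1, Itga4 stood at 0.520 and 0.518 times Itgb1 in HSCP and at 0.954 to 1.09 times in Ly6G+. The beta chains themselves shifted in favour of Itgb2, at 3.15 and 2.98 times Itgb1 in HSCP, 13.2 and 13.8 times in Ly6G+ with vehicle, and 12.2 and 11.5 times in Ly6G+ with the drug. In this ratio both treated Ly6G+ libraries lay below both vehicle libraries. They lay above both in the ratios of Itgam, Itgal and Itgax to Itgb2 and of Itgam to Itgal. For Itga4 to Itgb1 they overlapped. With 2 libraries on each side such separation is common, as 57.7% of all genes showed it. The ratio of Itgax to Itgb2 was 0.00849 and 0.00860 in Ly6G+ with vehicle and 0.0128 and 0.0130 in Ly6G+ with the drug, beside 0.0151 and 0.0121 in HSCP.

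**Figure D3:**
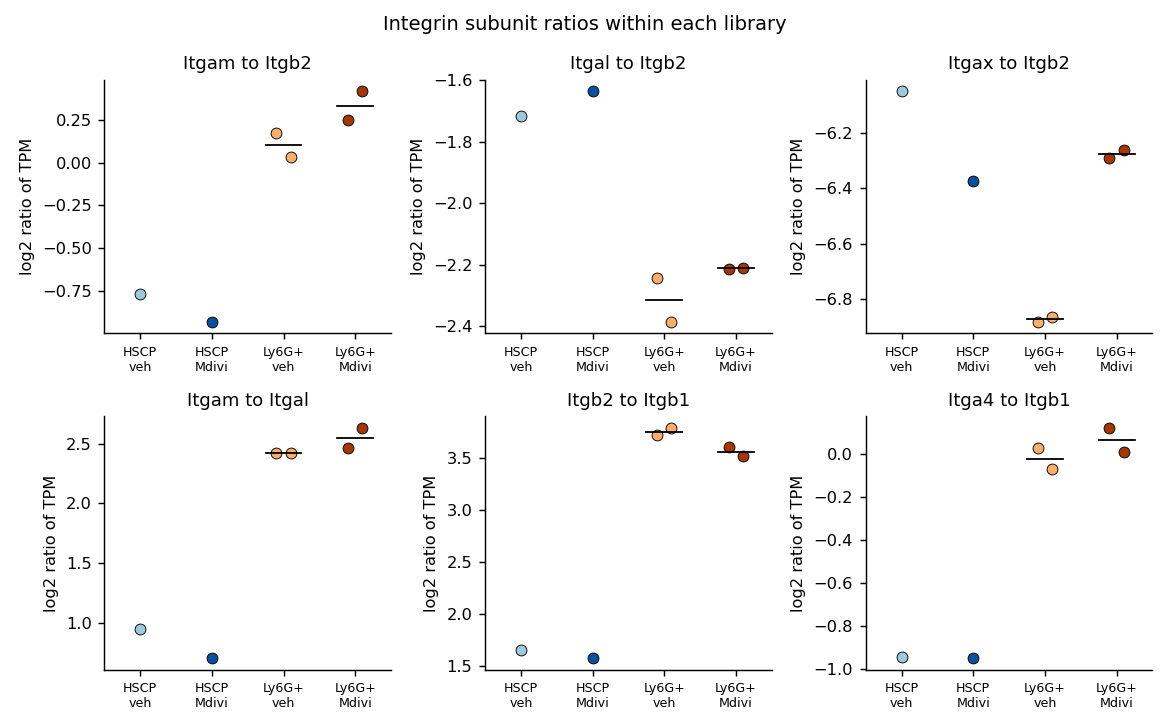
Ratios of TPM between integrin subunit genes within each library, on a log2 scale (vertical axis, a separate range in each panel), with libraries by group along the horizontal axis and bars at the mean of the 2 Ly6G+ libraries of a group. Itgam to Itgb2, Itgam to Itgal, Itgb2 to Itgb1 and Itga4 to Itgb1 are higher in all Ly6G+ libraries than in HSCP, and Itgal to Itgb2 is lower.

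Selectins bind sugars built onto PSGL-1, and P-selectin also needs sulfated tyrosines on it, so the genes of those steps and of the selectins were described beside Selplg. In Ly6G+, 3 of the 23 tested rose with Mdivi-1, 4 fell and 16 did not pass, with a median of -0.10 against -0.05 for all genes. Gcnt1, which builds the core 2 branch that carries the selectin-binding sugar, went from 19.1 and 17.0 TPM to 36.6 and 39.1 TPM, a log2 change of 1.03 (SE 0.086, limma, Benjamini-Hochberg adjusted p = 0.00787). St3gal6, a sialyltransferase of that sugar, went from 58.8 and 72.5 TPM to 126 and 146 TPM, a log2 change of 1.04 (SE 0.125, limma, Benjamini-Hochberg adjusted p = 0.0185). Both were higher in both treated libraries, with folds of 2.09 and 2.07 on the means. Fut7, the fucosyltransferase that completes sialyl Lewis x, moved in the opposite direction, from 14.0 and 16.3 TPM to 7.95 and 8.37 TPM, a log2 change of -0.82 (SE 0.107, limma, Benjamini-Hochberg adjusted p = 0.0230). Tpst2, a tyrosine sulfotransferase, went from 87.6 and 89.1 TPM to 61.8 and 53.0 TPM, a log2 change of -0.62 (SE 0.088, limma, Benjamini-Hochberg adjusted p = 0.0276). The genes of the sugar and sulfate steps thus moved in both directions. Under either other scaling the counts became 4 higher and 3 lower. Without 1 vehicle library none of these 4 genes passed: for Gcnt1 the change was then 1.11 without replicate 1 and 0.95 without replicate 2 (limma, Benjamini-Hochberg adjusted p = 0.0676 and 0.0764), and for Fut7 -0.92 and -0.71 (limma, Benjamini-Hochberg adjusted p = 0.0885 and 0.138). For St3gal6 it was 0.90 and 1.19 and for Tpst2 -0.63 and -0.61. Without Mdivi-1 replicate 1, Gcnt1, St3gal6 and Tpst2 passed, and without replicate 2 only Gcnt1 of the 4.

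**Figure D4:**
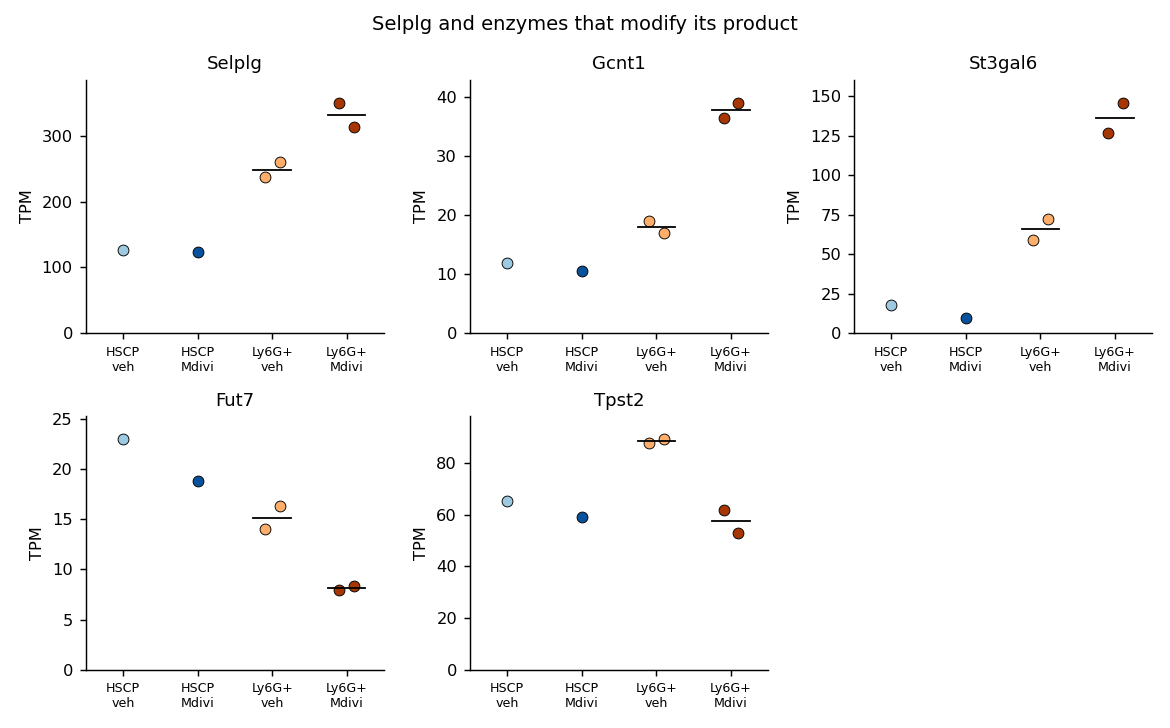
Level in TPM (vertical axis, from 0) of Selplg and of Gcnt1, St3gal6, Fut7 and Tpst2, whose enzymes modify its product, in the 6 libraries by group; bars are the means of the 2 Ly6G+ libraries of a group. With Mdivi-1 both Ly6G+ points lie above both vehicle points for Selplg, Gcnt1 and St3gal6, and below them for Fut7 and Tpst2.

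Between populations, 8 of these 23 genes were higher in Ly6G+ and 11 lower as deposited, and 11 were higher and 8 lower under either other scaling. St3gal6 was higher by 2.77 on the log2 scale (limma, Benjamini-Hochberg adjusted p = 0.00517) and Gcnt1 by 1.16 (limma, Benjamini-Hochberg adjusted p = 0.00694). Cd34, a sialomucin of progenitors, was lower at -2.30 (limma, Benjamini-Hochberg adjusted p = 6.92e-06), and Galnt1, which starts mucin-type sugar chains, at -1.22 (limma, Benjamini-Hochberg adjusted p = 0.00477).

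Of the other integrin subunits, 11 of 20 were tested in Ly6G+, of which 0 rose with Mdivi-1, 3 fell and 8 did not pass, with a median of -0.36. Itga2b and Itgb3, which form the platelet fibrinogen receptor, went from 45.7 and 51.5 TPM to 22.2 and 18.9 TPM and from 19.2 and 17.9 TPM to 9.21 and 9.99 TPM. Their log2 changes were -1.21 and -0.88 (limma, Benjamini-Hochberg adjusted p = 0.00914 and 0.0129). Itga6, a laminin receptor chain, fell by 0.45 on the log2 scale (limma, Benjamini-Hochberg adjusted p = 0.0390), a call lost under both other scalings (limma, Benjamini-Hochberg adjusted p = 0.0589 and 0.0580). The calls of Itga2b and Itgb3 were kept without either Mdivi-1 library and lost without vehicle replicate 1 or 2, at -1.29 and -1.12 for Itga2b and -0.83 and -0.93 for Itgb3 (limma, Benjamini-Hochberg adjusted p = 0.0742 to 0.104), and that of Itga6 was lost without any 1 library, at -0.52 to -0.37. Itgb7, which can replace Itgb1 as the partner of Itga4, had a log2 change of -0.36 (limma, Benjamini-Hochberg adjusted p = 0.0766). Between populations 2 of 11 were higher in Ly6G+ and 4 lower, among them Itga2b at -1.40 (limma, Benjamini-Hochberg adjusted p = 7.90e-05) and Itga6 at -0.90 (limma, Benjamini-Hochberg adjusted p = 0.000163). Under either other scaling the counts were 4 and 3. In HSCP the log2 ratio of Mdivi-1 to vehicle was -0.83 for Itga2b and -0.65 for Itgb3, the 2 of 10 genes past 0.5 in size.

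Genes that switch integrins on or bind their tails numbered 27 tested. With Mdivi-1, 2 rose, 1 fell and 24 did not pass, with a median of -0.13. Rassf5, the gene of the Rap1 effector RAPL, went from 131 and 141 TPM to 178 and 175 TPM, a log2 change of 0.37 (limma, Benjamini-Hochberg adjusted p = 0.0347). Cyth1, whose product binds the beta 2 tail, rose by 0.32 (limma, Benjamini-Hochberg adjusted p = 0.0472), and Rasgrp2, an activator of Rap1, fell by 0.31 on the log2 scale (limma, Benjamini-Hochberg adjusted p = 0.0465). The call of Rasgrp2 was lost under median-of-ratios and upper-quartile scaling (limma, Benjamini-Hochberg adjusted p = 0.0639 and 0.0641). Under median of ratios 3 of the list rose and 0 fell, and under upper quartile 2 and 0. Leaving out any 1 library ended the calls of Rassf5 (0.32 to 0.43), Cyth1 (0.29 to 0.34) and Rasgrp2 (-0.37 to -0.26). Flna, the most abundant of those that did not pass, had a log2 change of -0.13 (limma, Benjamini-Hochberg adjusted p = 0.181). Between populations 20 of the 27 were higher in Ly6G+ and 4 lower, with a median of 0.50 against -0.35 for all genes. By median of ratios the counts were 23 and 0, and by upper quartile 23 and 1. Actn1 (actinin) at 1.56, Fyb (the adaptor ADAP) at 1.29, Rassf5 at 1.28 and Zyx (zyxin) at 1.27 had the largest differences, each with a limma Benjamini-Hochberg adjusted p of at most 9.22e-05.

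Of 31 genes that carry signals inward from bound integrins and PSGL-1, 1 rose with Mdivi-1 and 30 did not pass, with a median of -0.0046. The riser was Lyn, a kinase of the Src family, from 187 and 186 TPM to 224 and 235 TPM, a log2 change of 0.30 (limma, Benjamini-Hochberg adjusted p = 0.0424). Its call was lost without any 1 library, at 0.26 to 0.33 (limma, Benjamini-Hochberg adjusted p = 0.0898 to 0.194). Under either other scaling 2 of the 31 rose and the median was 0.06. The adaptor genes Tyrobp and Fcer1g and the G protein gene Gnai2 had log2 changes of 0.04, -0.19 and -0.12, none past the threshold (limma, Benjamini-Hochberg adjusted p = 0.639, 0.259 and 0.228). Between populations 20 were higher in Ly6G+ and 5 lower, with a median of 0.50, and under either other scaling 25 were higher and 1 lower. The Src family gene Fgr was higher by 2.20 and the adaptor genes Fcer1g and Tyrobp by 1.34 and 1.27, each with a limma Benjamini-Hochberg adjusted p of at most 2.31e-05.

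Counter-receptors and genes of transmigration gave 1 riser, 5 fallers and 23 that did not pass among 29 tested with Mdivi-1, with a median of -0.17. Esam, a junction protein of endothelium and platelets, went from 4.33 and 4.34 TPM to 1.05 and 1.62 TPM, a log2 change of -1.20 (limma, Benjamini-Hochberg adjusted p = 0.0298). Icam1, the ligand of LFA-1 and Mac-1, went from 15.0 and 16.9 TPM to 11.2 and 10.6 TPM, a log2 change of -0.51 (limma, Benjamini-Hochberg adjusted p = 0.0497). The tetraspanin genes Cd63 and Cd9 fell by 0.50 and by 0.33 on the log2 scale (limma, Benjamini-Hochberg adjusted p = 0.0124 and 0.0398). The calls of Icam1 and Cd9 were lost under both other scalings, where the list held 1 riser and 2 fallers. The riser, Adam8, a protease that sheds PSGL-1 among others, was named after its value was seen (log2 change 0.27, limma, Benjamini-Hochberg adjusted p = 0.0466). Leaving out any 1 library ended the calls of Esam (-1.38 to -1.03), Icam1 (-0.59 to -0.43), Cd9 (-0.36 to -0.29) and Adam8 (0.24 to 0.30), and that of Cd63 was kept only without Mdivi-1 replicate 2 (-0.52 to -0.47 over the 4). Between populations 14 were higher in Ly6G+ and 10 lower as deposited, 14 and 5 by median of ratios, and 14 and 6 by upper quartile. Mmp9 (a gelatinase) at 3.14, Adam8 at 3.05 and Fn1 (fibronectin) at 2.29 were higher, and Vcam1, the ligand of VLA-4, was lower at -2.03, each with a limma Benjamini-Hochberg adjusted p of at most 1.59e-05.

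Transcripts of other cell types moved with treatment too. The 14 megakaryocyte and platelet markers summed to 326 and 323 TPM in Ly6G+ with vehicle and 153 and 139 TPM in Ly6G+ with the drug, and to 387 and 192 TPM in HSCP. In Ly6G+ 11 of the 14 fell, among them Vwf at -1.76 and Gp5 at -1.44 (limma, Benjamini-Hochberg adjusted p = 0.0132 and 0.00820), and so did Itga2b and Itgb3, which are in this list as well as among the integrins. The 11 endothelial markers summed to 69.0 and 61.8 TPM with vehicle and 41.5 and 36.7 TPM with Mdivi-1 in Ly6G+, and to 168 and 125 TPM in HSCP. Of 5 tested, 3 fell: Tie1 at -1.23 (limma, Benjamini-Hochberg adjusted p = 0.0284), Esam and Erg. Esam is also a platelet gene and Erg is also in the stem and progenitor list, so these lists are not independent. Of the 11, 2, Cdh5 and Emcn, were under 1 TPM in every library. Without 1 library the change of Vwf was -2.01 to -1.51 and passed in no case, and that of Gp5 was -1.55 to -1.34 and was lost without either vehicle library. Tie1 had -1.33 and -1.14 without Mdivi-1 replicate 1 and 2, and passed in neither case. PECAM-1 is a known surface protein of both of these cell types, and their sums were lower in the same libraries as Pecam1. Progenitors, too, can carry it: of the 12 stem and progenitor markers 0 rose and 4 fell in Ly6G+ (2 by median of ratios, 3 by upper quartile), with a median of -0.38. Their sums overlapped, at 823 and 862 TPM with vehicle and 825 and 843 TPM with Mdivi-1, and reached 6634 and 6856 TPM in HSCP. The 10 erythroid markers summed to 2015 and 2105 TPM with vehicle and 1577 and 1613 TPM with Mdivi-1 in Ly6G+, where 3 fell and 0 rose, and to 3666 and 3762 TPM in HSCP. The part of these cells in the fall of Pecam1 was not tested.

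For Itgax, the 13 dendritic cell markers summed to 747 and 791 TPM with vehicle and 435 and 425 TPM with Mdivi-1 in Ly6G+, with 5 of 11 lower and 0 higher, and to 1448 and 913 TPM in HSCP. Cd209a and Cd74 had log2 changes of -1.34 and -0.97 (limma, Benjamini-Hochberg adjusted p = 0.0160 and 0.00544), and Xcr1 was under 1 TPM in every library. Without 1 library Cd74 ran from -1.04 to -0.89 and lost its call only without vehicle replicate 2, and Cd209a ran from -1.43 to -1.25 and kept its call only without Mdivi-1 replicate 1. The 13 monocyte and macrophage markers summed to 2377 and 2351 TPM with vehicle and 2127 and 2158 TPM with Mdivi-1, with 2 higher and 2 lower. Both sums were thus lower in the libraries where Itgax was higher. A sum follows its most abundant genes, and the lists differed by their median log2 change. It was -0.59 for the dendritic cell list and 0.03 for the monocyte and macrophage list, against -0.05 for all genes. The 12 neutrophil markers summed to 268310 and 259482 TPM with vehicle and to 257648 and 267796 TPM with Mdivi-1, which overlap. Yet 4 of the 12 rose and 4 fell, so the overlap of the sums does not mean that the markers were unchanged. The 10 B cell markers summed to 146 and 148 TPM in Ly6G+ with vehicle and 23.6 and 24.5 TPM with Mdivi-1. Of them 9 fell, with a median log2 change of -2.17. The 8 mast cell and basophil markers summed to 686 and 701 TPM with vehicle and 386 and 399 TPM with Mdivi-1. Of them 7 fell, with a median of -1.23. The part of any of these cells in the values of the adhesion genes was not tested. Of 9 T and NK cell markers tested 1 rose and 0 fell, and of 6 eosinophil markers tested 0 passed in either direction. No list had a marker at 0 in every library.

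**Figure D5:**
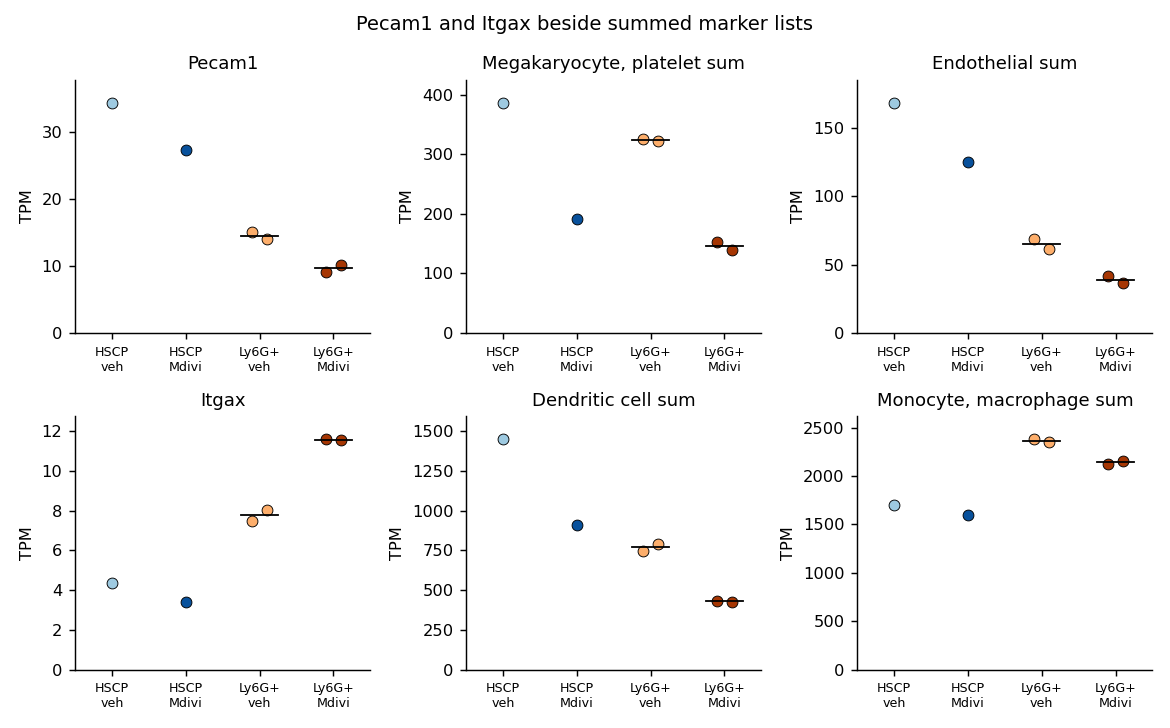
Level of Pecam1 and Itgax and the summed levels of 4 marker lists, all in TPM (vertical axes, from 0), in the 6 libraries by group; bars are the means of the 2 Ly6G+ libraries of a group. The megakaryocyte and platelet sum and the endothelial sum are lower with Mdivi-1 in Ly6G+, as is Pecam1, and the dendritic cell and monocyte and macrophage sums are lower where Itgax is higher.

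For each gene, the 2 genes with the most similar profile over the 6 libraries were found by the root mean square distance between log2 profiles, each centred on its own mean, among genes with a mean of at least 10 TPM. The nearest to Selplg was Rassf5, at a distance of 0.063, with 65.4 and 61.2 TPM in HSCP and 131 to 178 TPM in Ly6G+, followed by Gm17167 at 0.072. Cd44 was nearest to Stk40 (0.027) and Ndst1 (0.034), and Itgal to Vps54 (0.039) and Hipk1 (0.044). Itgam was nearest to Ankrd33b (0.082) and Slfn4 (0.085), Itgb2 to Fam214b (0.055) and Pag1 (0.058), and Itgax to Retreg1 (0.079) and Zfand4 (0.089). Itga4 was nearest to Slc38a2 (0.038) and Fnip1 (0.038), and Itgb1 to Ss18 (0.021) and Ddx50 (0.022). Pecam1 was nearest to Car2 (0.066), which had 163 and 138 TPM in HSCP and 50.4 to 71.7 TPM in Ly6G+, and to Atp2b4 (0.073). None of the 18 nearest genes was another of the 9, but each gene had only 2 places, open to every gene above that level. Itgax, with means of 3.87 TPM in HSCP and 9.66 TPM in Ly6G+, was too low to be found. The absence therefore does not show that the 9 genes differ in profile.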

How the data were processed

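RNA sequencing of 6 sorted bone marrow libraries was analysed from the table of TPM values that the authors deposited, with 28987 mouse genes. They used bcl2fastq, CASAVA 1.8, kallisto and mm10, per the submitters' processing notes. Which kallisto version, annotation and strand setting were used is not given in the sources used here. Groups were taken from the labels. Symbols were matched to 27458 genes, and positions and shared 31-base words were taken from GENCODE M21. Tests used limma 3.58.1 in R 4.3.3 (trended, robust prior) on log2(TPM + 1), keeping genes that reached 1 TPM in 2 or more libraries, with Benjamini-Hochberg adjustment over all genes. On this scale the change of a low gene is understated. For the effect of treatment the test used the 4 Ly6G+ libraries, and the others all 6. The fit was also run on data simulated from its own model, which does not test whether that model holds for these libraries.

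The 9 genes and the 16 other lists were chosen with earlier results of these data known. From each adhesion or marker list up to 4 genes per comparison were eligible to be named: those past the threshold by size of change, then the most abundant. Values of some genes in these lists are not reported here, but the lists' counts and medians include them. Alternatives were another pseudocount, scaling, filter, prior and source of spread, a replicate block, and leaving out each library.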

Additional observations from a re-analysis of the deposited data

How the results depend on the processing

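With TPM and 2 libraries a group, depth and read noise cannot be assessed. In the treatment test 789 genes and 2 of the 9 adhesion genes were called. Without a filter these became 218 and 0, with a plain prior 346 and 0, and with the spread from all 6 libraries 653 and 1. With a pseudocount of 0.1 TPM 730 genes were called, and of the 9 Itgax and Pecam1. With a minimum of 5 TPM 897 genes were called, and of the 9 Itgax, Pecam1 and Selplg. Leaving out 1 library gave 22 to 279 genes and 0 of the 9. Same-numbered Ly6G+ libraries did not deviate together (correlation -0.031 over 11775 genes). That compares 1 difference between vehicle libraries with 1 between Mdivi-1 libraries, so it cannot show whether the numbers mark a shared mouse or batch. With the replicate block 325 genes and 0 of the 9 were called. Itgb2, at -0.019, turned to 0.046 by median of ratios and 0.042 by upper quartile, and ran from -0.059 to 0.021 with a library left out. Dnm1l, at 0.0047, then ran from -0.041 to 0.0505. The interaction test called 0 genes, but 1 with a pseudocount of 0.1 TPM, 6 with a minimum of 5 TPM and 0 to 2 with a library left out, and 0 of the 9 throughout. Its difference for Itgb2, 0.018, ran from -0.022 to 0.059 with a library left out. Between populations 8 or 9 of the 9 genes were called under every alternative that kept both HSCP libraries. Most genes were called there too: 7712 to 9104 over those alternatives, and 8938 (72.4%) in the main test. In the treatment test, leaving out a library also left fewer residual degrees of freedom, so a lost call cannot be read as a lost change. The log2 change of Itgax was then 0.48 to 0.56, against 0.52 in the main test. That of Pecam1 was -0.62 to -0.47, against -0.55. The cause of the shifts in calls was not tested.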
